A study of Mus musculus with 26 samples.

Results

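The genes of de novo lipogenesis were read out here as 10 members, chosen by symbol among the 39017 gene rows of the count tables and each found once: the enzymes Acly, Acaca, Acacb, Fasn, Elovl6, Scd1, Scd2 and Me1, and the transcription factors Srebf1 and Mlxipl. RNA sequencing was performed on adipocytes and on stromal vascular cells (SVCs) separated by collagenase from the epididymal fat of male C57BL/6J mice that entered the diets at 9 to 10 weeks of age. LFD mice received a diet with 10% fat for 12 weeks and HFD mice a diet with 60% fat for 12 weeks. SW mice, the formerly obese group, were moved to LFD for the last 3 weeks after 9 weeks of HFD. No mouse carried a transgene or deletion, and the number of mice behind a library is not given in the sources used here, so p-values measure the spread between libraries. The adipocyte fraction had 3 libraries per diet. The SVC fraction had 1 LFD library, 2 HFD libraries and 3 SW libraries, so no test was made with the SVCs of LFD mice. The labels list 3 libraries for each group. A further 3 SVC columns whose names match no labelled group were not used here, and whether these are the LFD and HFD libraries not counted above is not settled by the labels.

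De novo lipogenesis turns carbon from glucose into fatty acids. Citrate exported from the mitochondrion is cleaved by ATP citrate lyase (Acly) to cytosolic acetyl-CoA, acetyl-CoA carboxylase (Acaca, Acacb) makes malonyl-CoA from it, and fatty acid synthase (Fasn) builds palmitate with NADPH that malic enzyme (Me1) helps to supply. Elovl6 lengthens palmitate, and the desaturases Scd1 and Scd2 introduce a double bond. In adipose tissue the transcription factors SREBP-1 (gene Srebf1), which is linked to insulin, and ChREBP (gene Mlxipl), which is linked to glucose, are the best known activators of these genes.

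The start regions of 3 members are shown because the letters for which the regulators of this pathway are known were searched in them. The windows were taken from RefSeq (GRCm38.p6) and run from 250 bases before to 50 bases after a transcription start, 5′ to 3′ on the gene's strand, with capitals for the matches. The Fasn window lies at chr11:120824498-120824797 (minus strand) and holds 3 CCAAT boxes. The Mlxipl windows belong to 2 separate starts, chr5:135089640-135089939 (E-box, CCAAT box and 2 GC boxes) and chr5:135106641-135106940 (sterol regulatory element), both on the plus strand. The Acly window at chr11:100527951-100528250 (minus strand) holds 4 GC boxes and 1 CCAAT box and belongs to a member whose RNA did not pass the test between diets.
Fasn: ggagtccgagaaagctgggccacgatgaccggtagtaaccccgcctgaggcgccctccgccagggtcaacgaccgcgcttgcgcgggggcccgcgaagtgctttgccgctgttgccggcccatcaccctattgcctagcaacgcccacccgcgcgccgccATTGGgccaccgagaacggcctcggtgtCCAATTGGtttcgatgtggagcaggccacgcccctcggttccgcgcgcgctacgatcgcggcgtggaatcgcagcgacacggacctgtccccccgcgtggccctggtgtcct
Mlxipl, first start: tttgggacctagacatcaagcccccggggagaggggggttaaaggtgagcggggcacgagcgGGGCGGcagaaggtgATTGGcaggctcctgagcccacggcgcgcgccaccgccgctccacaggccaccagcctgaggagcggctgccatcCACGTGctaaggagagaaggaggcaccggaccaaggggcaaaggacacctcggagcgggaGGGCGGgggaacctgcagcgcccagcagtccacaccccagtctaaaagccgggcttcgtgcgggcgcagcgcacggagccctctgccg
Mlxipl, second start: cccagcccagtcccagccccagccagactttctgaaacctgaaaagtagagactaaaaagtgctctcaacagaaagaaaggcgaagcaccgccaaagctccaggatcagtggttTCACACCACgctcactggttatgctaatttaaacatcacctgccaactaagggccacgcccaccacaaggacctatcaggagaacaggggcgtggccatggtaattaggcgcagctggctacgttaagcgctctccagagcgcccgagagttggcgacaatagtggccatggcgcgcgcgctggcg
Acly: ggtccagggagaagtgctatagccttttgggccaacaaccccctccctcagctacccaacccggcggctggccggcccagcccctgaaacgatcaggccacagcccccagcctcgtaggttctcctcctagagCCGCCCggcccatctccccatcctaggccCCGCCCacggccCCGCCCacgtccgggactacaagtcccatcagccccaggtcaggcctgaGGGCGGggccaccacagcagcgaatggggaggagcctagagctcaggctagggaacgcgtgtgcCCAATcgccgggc

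Of the 10 members, 8 had an entry in the promoter table, with 12 windows in all, and Scd1 and Scd2 had none. The sterol regulatory element, for which SREBP-1 is known, was searched as TCACNCCAC on both strands and was found in 1 of these 8 members, Mlxipl, where it started 136 bases before the start, against 1.24% of all promoters in the table. The E-box CACGTG, to which basic helix-loop-helix factors bind, was also found in 1 member, again Mlxipl, 98 bases before its other start, against 7.15% of all promoters. The CCAAT box CCAAT was present in a window of 6 of the 8 members, against 37.4% of single promoters, and the GC box GGGCGG in a window of 4, against 35.7%. In Fasn the CCAAT boxes lay 90, 62 and 59 bases before the start, and the last 2 of them, on opposite strands, overlapped. A match is a description of letters, and members with several windows had more chances of one. Only these exact letters within these windows were searched, so a missing match does not show that a binding site is absent.

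All 10 members passed the filter on low counts in both fractions. Adipocytes of LFD mice held the highest mean level of 9 of the 10 members among the diets, and Acly was the exception. Fasn, Acaca, Acacb, Scd1, Elovl6, Srebf1 and Mlxipl were lower in HFD than in LFD adipocytes, between 1.75-fold for Srebf1 and 3.12-fold for Scd1. Levels are given as counts per 1000000 (CPM), scaled within a fraction by trimmed mean of M values (TMM) factors. Changes come from the edgeR quasi-likelihood test over all genes, with p-values adjusted by Benjamini-Hochberg and a threshold of 0.05.

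The ATP citrate lyase gene Acly, which opens the pathway, measured 338, 252 and 213 CPM in the LFD libraries, 197, 266 and 223 CPM in the HFD libraries and 245, 339 and 289 CPM in the SW libraries. The diets overlapped for this gene. The log2 difference between HFD and LFD was -0.23 ± 0.20 (SE, n = 3 libraries per diet, adjusted p = 0.364 by edgeR).

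The acetyl-CoA carboxylase genes separated the diets. Acaca, whose cytosolic product feeds fatty acid synthase, measured 337, 252 and 371 CPM in LFD, 79.3, 135 and 107 CPM in HFD and 137, 236 and 187 CPM in SW libraries. No LFD library overlapped with a HFD or SW library, and the SW libraries lay above all HFD libraries, with the lowest SW value next to the highest HFD value. Acaca fell by 1.57 ± 0.25 on the log2 scale in HFD against LFD adipocytes (adjusted p = 0.000673) and rose by 0.80 ± 0.25 from HFD to SW (adjusted p = 0.0349). Acacb, the form attached to mitochondria that is known for restraining fatty acid oxidation, measured 70.4, 73.3 and 123 CPM in LFD, 23.6, 37.4 and 32.6 CPM in HFD and 38.5, 54.7 and 46.5 CPM in SW libraries. Its order was the same, with no overlap between any pair of diets. Acacb fell by 1.50 ± 0.24 on the log2 scale with HFD (adjusted p = 0.000747), and its log2 difference of 0.58 ± 0.24 between SW and HFD did not pass the threshold (adjusted p = 0.0911).

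Fatty acid synthase, Fasn, measured 2409, 1799 and 1884 CPM in LFD, 493, 1361 and 910 CPM in HFD and 1281, 1396 and 1457 CPM in SW libraries. The HFD libraries were the most spread, 921 ± 434 CPM (SD, n = 3) against 1378 ± 89.0 CPM in SW mice, and the highest HFD value lay within the SW range. Fasn fell by 1.14 ± 0.31 on the log2 scale in HFD against LFD adipocytes (adjusted p = 0.0120), and its log2 difference of 0.58 ± 0.31 between SW and HFD did not pass the threshold (adjusted p = 0.172). The malic enzyme gene Me1 was spread within HFD mice in the same way, with 990, 718 and 674 CPM in LFD, 298, 667 and 504 CPM in HFD and 499, 592 and 608 CPM in SW libraries. All LFD values exceeded the others, the lowest LFD value by a small margin over the highest HFD value. The log2 difference of Me1 between HFD and LFD, -0.70 ± 0.27, missed the threshold (adjusted p = 0.0545) and passed it by DESeq2, limma-voom and upper-quartile scaling (adjusted p from 0.0206 to 0.0316).

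Scd1, the main stearoyl-CoA desaturase of adipose tissue, was the most abundant member by a wide margin, with 25723, 22599 and 23214 CPM in LFD, 5176, 10199 and 7539 CPM in HFD and 8586, 12423 and 11830 CPM in SW libraries. The SW and HFD ranges overlapped, and both lay below all LFD libraries. Scd1 fell by 1.64 ± 0.28 on the log2 scale with HFD (adjusted p = 0.000955), and its log2 difference between SW and HFD was 0.52 ± 0.27 (adjusted p = 0.165). Its relative Scd2 was spread within LFD mice, with 737, 450 and 253 CPM, against 239, 473 and 294 CPM in HFD and 308, 207 and 404 CPM in SW libraries. The diets overlapped and no Scd2 difference passed the threshold (HFD against LFD -0.52 ± 0.39 on the log2 scale, adjusted p = 0.293).

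Elovl6, the elongase that carries palmitate to stearate, measured 42.7, 30.5 and 36.4 CPM in LFD, 11.2, 17.1 and 16.2 CPM in HFD and 25.1, 25.3 and 22.5 CPM in SW libraries. No pair of diets overlapped. The SW libraries were the least spread, 24.3 ± 1.55 CPM (SD, n = 3) against 14.8 ± 3.18 CPM in HFD mice. Elovl6 fell by 1.28 ± 0.18 on the log2 scale with HFD (adjusted p = 0.000291) and rose by 0.70 ± 0.18 from HFD to SW (adjusted p = 0.0168).

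The transcription factor Srebf1 measured 226, 200 and 239 CPM in LFD, 98.8, 161 and 121 CPM in HFD and 107, 144 and 177 CPM in SW libraries. HFD and SW libraries overlapped over most of their range. Srebf1 fell by 0.81 ± 0.22 on the log2 scale with HFD (adjusted p = 0.0106), with a log2 difference of 0.17 ± 0.21 between SW and HFD (adjusted p = 0.565). Mlxipl measured 37.3, 40.5 and 42.9 CPM in LFD, 10.4, 32.6 and 17.0 CPM in HFD and 25.2, 25.8 and 32.1 CPM in SW libraries. The SW values lay within the HFD range, the widest of the 3 diets. Mlxipl fell by 1.00 ± 0.32 on the log2 scale with HFD (adjusted p = 0.0255), and this call was lost without a filter on low counts (adjusted p = 0.0676) and on leaving out the LFD library numbered 405, the LFD library 406 or the HFD library 403 (adjusted p from 0.0638 to 0.0828).

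**Figure D1:**
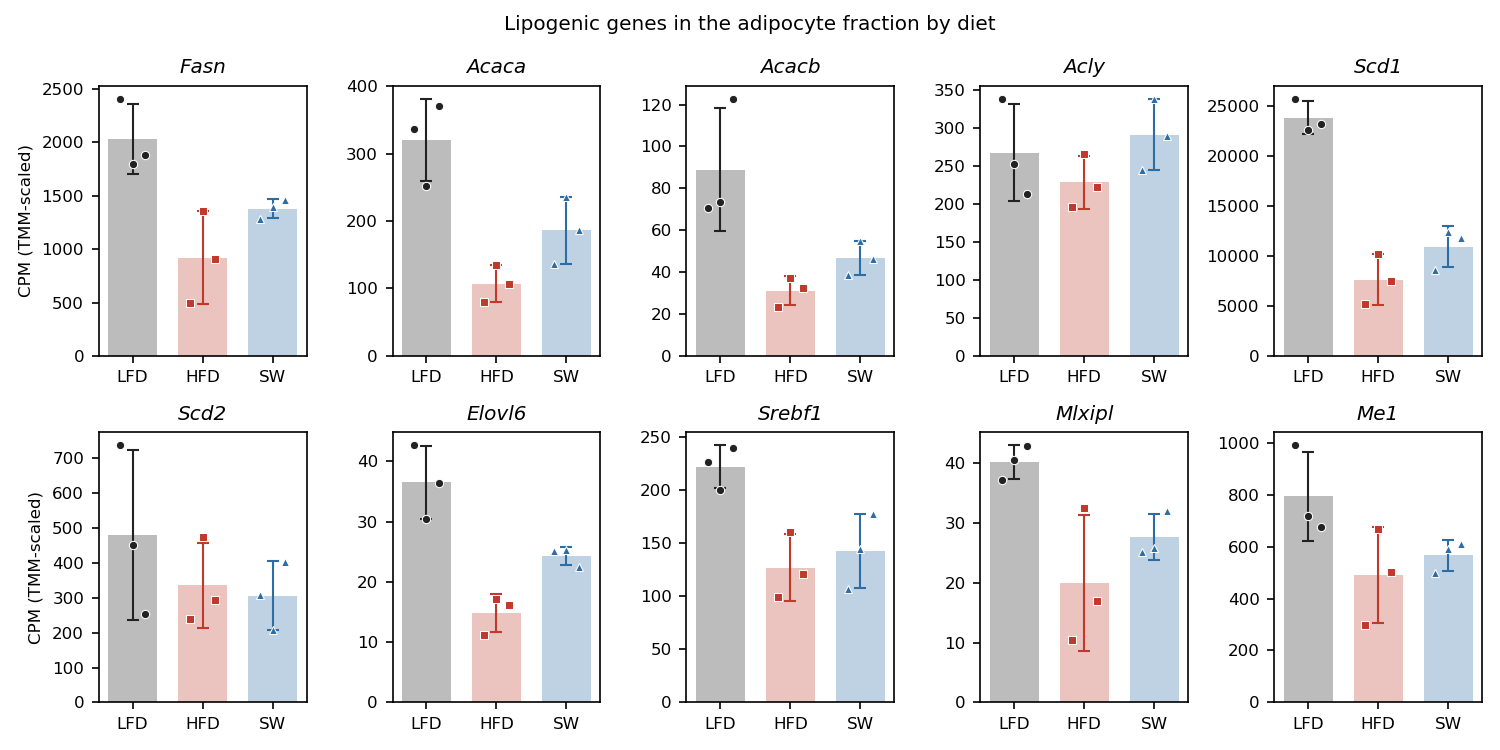
TMM-scaled CPM of each of the 10 lipogenic genes in the adipocyte libraries of LFD, HFD and SW mice (3 libraries per diet, points), with bars for the mean and error bars for the SD; each panel has its own linear axis from 0. Apart from Acly and Scd2, all 3 LFD libraries lie above all HFD libraries, and library 401 is the lowest of the HFD libraries in every panel.

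In all, 7 of the 10 members were lower and 0 higher in HFD than in LFD adipocytes by edgeR, while 25.0% of the 14461 genes tested were lower and 26.5% higher. At an unadjusted p under 0.05 the counts were 8 lower and 0 higher, and DESeq2 and limma-voom each called 8 lower and 0 higher. Over all genes, DESeq2 made 7596 calls, 51.7% of them higher, and limma-voom 7611, 51.0% of them higher. The share of all genes at an unadjusted p was not counted, here or in the comparisons below. The median log2 change of the members was -1.07, beside -0.03 over all genes. For 8 members the HFD libraries lay wholly below the LFD libraries, which was so for 30.5% of all genes. From HFD to SW, 2 members were higher (Acaca and Elovl6) and 0 lower, beside 15.6% of all genes higher and 15.9% lower, with 3 higher and 0 lower at an unadjusted p under 0.05 and 2 higher and 0 lower by DESeq2 and by limma-voom. Those tools made 5183 calls (48.9% higher) and 4716 calls (48.0% higher) over all genes. The SW libraries lay wholly above the HFD libraries for 3 members (Acaca, Acacb and Elovl6), against 23.3% of all genes, so the share of members called or separated in this comparison was near that of all genes. The Acaca call was lost on leaving out the HFD library 401, the HFD library 403, the SW library 408 or the SW library 409 (adjusted p from 0.0717 to 0.113), while Elovl6 kept its call without any single library (highest adjusted p = 0.0494). Without the HFD library 402, the highest of its group, 4 members were called, with Fasn (log2 0.95, adjusted p = 0.0318) and Mlxipl (0.98, adjusted p = 0.0124) added.

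Against LFD mice, 3 members were still lower in SW adipocytes and 0 were higher by edgeR, beside 6.18% of all genes lower and 10.9% higher. At an unadjusted p under 0.05, 5 were lower and 0 higher, with 5 lower by DESeq2 and 3 lower by limma-voom and 0 higher by either. Over all genes, DESeq2 made 3056 calls (60.7% higher) and limma-voom 2420 (61.6% higher), where edgeR made 2468. Scd1 fell by 1.12 ± 0.28 on the log2 scale (adjusted p = 0.0191), Acacb fell by 0.93 ± 0.24 (adjusted p = 0.0256) and Elovl6 fell by 0.58 ± 0.18 (adjusted p = 0.0484). The log2 difference of Acaca, -0.78 ± 0.25, missed the threshold (adjusted p = 0.0575). It passed by DESeq2, limma-voom and upper-quartile scaling (adjusted p from 0.0146 to 0.0486), and the 3 by limma-voom held Acaca in place of Elovl6. The SW libraries lay wholly below the LFD libraries for 8 members (all but Acly and Scd2), beside 17.5% of all genes, and the median log2 difference of the members was -0.61 beside 0.00 over all genes. These calls depended on single libraries: without the LFD library 404, the LFD library 406 or the SW library 407, 1 member was called, and without the HFD library 401 or 402, 5 were. Scd1 lost its call without the LFD library 404 (adjusted p = 0.0530), Acacb without the LFD library 406 or the SW libraries 407 or 409, and Elovl6 without any of 6 libraries or by limma-voom (adjusted p = 0.0567).

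For the 7 members that were lower with HFD, the SW mean stood part of the way from HFD to LFD on the log2 scale. This was 54.9% of the way for Elovl6, 50.9% for Fasn, 50.8% for Acaca, 46.2% for Mlxipl, 38.4% for Acacb, 31.6% for Scd1 and 21.0% for Srebf1. Both distances use the same HFD libraries, so these percentages are a description with no test. Their order is not settled, since with a library left out the log2 change from HFD to SW ranged from 0.16 to 0.98 for Mlxipl, from 0.27 to 0.95 for Fasn and from -0.02 to 0.35 for Srebf1. With LFD set against HFD and SW together, the same 7 members were higher in LFD and 0 lower, beside 19.4% of all genes higher and 20.7% lower. The unadjusted count was 8 higher and 0 lower, and DESeq2 and limma-voom each called 8 higher and 0 lower. Those tools made 6049 calls (47.4% higher) and 5899 calls (49.2% higher) over all genes. With a library left out, 5 to 8 members were called by edgeR. Fasn lost its call without the LFD library 404, 405 or 406 (adjusted p from 0.0521 to 0.0956). Mlxipl lost its call without any of these, the HFD library 403 or any SW library, and without a filter on low counts (adjusted p from 0.0544 to 0.133).

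**Figure D2:**
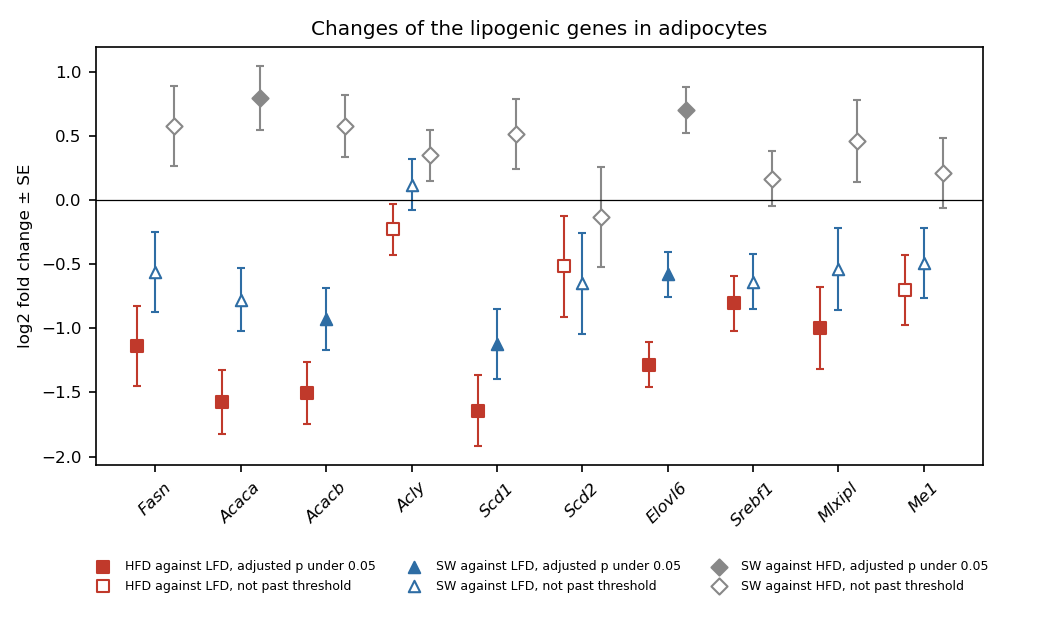
Log2 fold changes of the 10 lipogenic genes in adipocytes with their standard errors, from edgeR, for HFD against LFD (squares), SW against LFD (triangles) and SW against HFD (diamonds); filled symbols have an adjusted p under 0.05. The comparisons share libraries. Scd1, Acaca and Acacb show the lowest HFD values, from -1.64 to -1.50, and Acly passes the threshold in none of the comparisons.

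Divided by the length of the longest GENCODE transcript, the members spanned a wide range within LFD adipocytes, from 4935 CPM per kb for Scd1 to 6.14 CPM per kb for Elovl6. Me1 (241 CPM per kb) and Fasn (202 CPM per kb) followed Scd1 and overlapped with each other, then came Scd2 (88.1), Acly (60.5) and Srebf1 (51.6), whose neighbours in this order overlapped, then Acaca (33.6), Mlxipl (11.1), Acacb (10.1) and Elovl6, of which only Mlxipl and Acacb overlapped. In HFD adipocytes the order of the means was the same, with Scd1 at 1581 CPM per kb and Elovl6 at 2.49 CPM per kb, and the neighbours from Me1 to Acly and from Acaca to Elovl6 overlapped. In SW adipocytes Acly (65.8 CPM per kb) and Scd2 (56.2 CPM per kb) changed places, and the neighbours from Acly to Acaca overlapped. The 10 members together took from 2.60% to 3.17% of all counts in LFD, from 0.722% to 1.35% in HFD and from 0.946% to 1.58% in SW adipocytes, most of it Scd1.

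The balance between the paralogs was read as the share of each pair. Per length, Scd1 made up 98.3% ± 0.76 of Scd1 and Scd2 together in LFD, 96.3% ± 0.35 in HFD and 97.5% ± 0.90 in SW adipocytes (SD, n = 3). The HFD libraries lay wholly below the others, and the exact two-sided permutation test gave p = 0.1 against LFD and p = 0.1 against SW, the smallest that 3 against 3 libraries allow (adjusted p = 0.3 over 6 comparisons). Acaca made up 77.1% ± 4.07 of Acaca and Acacb in LFD, 75.9% ± 0.93 in HFD and 78.5% ± 1.67 in SW adipocytes, and the exact permutation p-values were 0.8 for HFD against LFD, 0.2 for SW against HFD and 0.6 for SW against LFD. In SVC libraries, with no test made, the Scd1 share was 71.9% in LFD, 70.7% and 86.3% in HFD and 83.4%, 75.3% and 81.7% in SW. The Acaca share was 61.9% in LFD, 70.9% and 71.3% in HFD and 46.3%, 61.6% and 52.4% in SW. The SW libraries of SVCs lay below the HFD libraries for the Acaca share and overlapped with them for the Scd1 share. Scd1 and Scd2, like Acaca and Acacb, share sequence, and how reads common to a pair were split rests on the estimation by RSEM.

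Markers of adipocytes and of other cells moved with the diets in the same libraries. The 10 adipocyte markers summed to between 32826 and 51552 CPM in LFD, 11937 and 19946 CPM in HFD and 28338 and 29373 CPM in SW adipocyte libraries, and 8 of the 10 were lower with HFD, from -0.93 for Pparg and Pnpla2 to -4.42 for Cfd on the log2 scale, while Plin1 (-0.52, adjusted p = 0.172) and Lep (0.22, adjusted p = 0.616) did not pass the threshold. All 11 macrophage markers were higher with HFD, with a median log2 change of 3.08, and their sums were 686 to 1153 CPM in LFD, 8427 to 9746 CPM in HFD and 6236 to 9389 CPM in SW libraries. Red cell markers were lower with HFD for 5 of 5 genes (median log2 change -1.84), mesothelial markers for 4 of 6 (-1.79) and endothelial markers for 4 of 6 (-0.83), with 0 higher in each list. Of 7 fibroblast and progenitor markers, 3 were higher and 1 lower (median 0.65). None of the 4 T cell and 4 B cell markers tested passed the threshold, nor did the 1 epididymal epithelium marker tested. Within HFD mice the summed adipocyte markers stood at 11937 CPM in library 401, 15167 CPM in library 403 and 19946 CPM in library 402, and all 10 lipogenic genes had this order of the HFD libraries. The macrophage markers summed to 9566, 9746 and 8427 CPM in the same libraries, and the part of these cell types in the spread and in the changes of the lipogenic genes was not tested. In bulk fractions such as these, fewer adipocytes and less RNA per adipocyte cannot be told apart.

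With the library size replaced by the geometric mean count of the 10 adipocyte markers, a scaling chosen after the data were seen, no member was lower with HFD. The log2 change was -0.21 for Scd1 (adjusted p = 0.580), -0.10 for Acaca (adjusted p = 0.743), 0.01 for Acacb, 0.18 for Elovl6, 0.24 for Fasn and 0.38 for Mlxipl, while Acly (1.23, adjusted p = 0.000479), Scd2 (0.84, adjusted p = 0.0373), Me1 (0.70, adjusted p = 0.0397) and Srebf1 (0.66, adjusted p = 0.0311) were higher. With this scaling 11580 of the 14461 genes tested were called higher with HFD, which was 98.5% of the 11761 calls. It moved the median of all genes by 1.52. Less that shift, the members had a median of -1.21, near the -1.07 without the scaling. The scaling moves every gene of a library alike, so subtracting the shift largely undoes it and is no further test. From HFD to SW, the median of all genes moved by -0.93 and neither Acaca (-0.09, adjusted p = 0.807) nor Elovl6 (-0.17, adjusted p = 0.633) was higher. The markers are not a constant standard, since Cfd (-4.42) and Retn (-3.13) were far lower on the log2 scale and Lep did not pass the threshold.

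The other genes of the pathway were read from lists of suppliers and regulators. Of 10 genes that supply glucose carbon, citrate or acetyl-CoA, 7 were lower and 0 higher with HFD, with a median log2 change of -0.82, beside 25.0% of all genes lower, 26.5% higher and a median of -0.03. The glucose transporter Slc2a4 measured 121, 116 and 140 CPM in LFD, 24.8, 41.8 and 30.0 CPM in HFD and 57.4, 81.5 and 96.3 CPM in SW libraries, so that the diets did not overlap. It fell by 1.96 ± 0.23 on the log2 scale with HFD (adjusted p = 9.68e-05) and rose by 1.28 ± 0.22 from HFD to SW (adjusted p = 0.00572). Aacs, which activates acetoacetate in the cytosol, fell by 1.79 ± 0.24 with HFD (adjusted p = 0.000241) and was the gene of this list that was also lower in SW than in LFD mice (-1.02, adjusted p = 0.0147).

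Of 7 genes listed for NADPH supply and the pentose phosphate pathway, 1 was higher and 2 were lower with HFD, beside 26.5% of all genes higher and 25.0% lower. G6pdx, the entry enzyme of the pentose phosphate pathway, rose by 0.70 ± 0.22 on the log2 scale (adjusted p = 0.0249), whereas Tkt and Taldo1 of the non-oxidative branch fell by 0.84 ± 0.16 (adjusted p = 0.00196) and by 0.81 ± 0.21 (adjusted p = 0.00841). The non-oxidative branch does not itself form NADPH, so the 2 lower genes are not NADPH-forming enzymes. The other elongases and desaturases, of which 10 of 12 were tested, counted 2 higher and 1 lower with a median log2 change of 0.17, neither share above that of all genes. Elovl1, for very long chains, rose by 0.60 ± 0.12 (adjusted p = 0.00218) and the delta-5 desaturase Fads1 rose by 0.36 ± 0.13 (adjusted p = 0.0430), while Elovl5, for polyunsaturated chains, fell by 0.55 ± 0.13 (adjusted p = 0.00657).

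Among 15 of 16 regulators tested, 2 were higher and 6 lower with HFD, with a median log2 change of 0.01, beside 26.5% of all genes higher and 25.0% lower. Thrsp, the lipogenic protein Spot 14 and a known target of both transcription factors, measured 1243, 1326 and 1339 CPM in LFD, 129, 269 and 124 CPM in HFD and 738, 597 and 756 CPM in SW libraries. The diets were far apart for this gene, which fell by 2.90 ± 0.30 on the log2 scale with HFD (adjusted p = 4.79e-05) and rose by 2.0 ± 0.29 from HFD to SW (adjusted p = 0.00380). Pnpla3, a lipid droplet protein regulated with lipogenesis, fell by 1.80 ± 0.29 (adjusted p = 0.000750). Srebf2, the paralog known for cholesterol synthesis, moved the other way from Srebf1, with 39.2, 33.5 and 33.1 CPM in LFD, 64.1, 54.2 and 74.2 CPM in HFD and 41.5, 41.7 and 42.1 CPM in SW libraries. It rose by 0.87 ± 0.13 with HFD (adjusted p = 0.000475) and fell by 0.62 ± 0.13 from HFD to SW (adjusted p = 0.00944). The site-2 protease gene Mbtps2, which cleaves SREBPs, rose by 0.77 ± 0.18 with HFD (adjusted p = 0.00497), and Nr1h3, the liver X receptor alpha that activates Srebf1, fell by 0.46 ± 0.14 (adjusted p = 0.0174). The sterol sensor Scap (0.06, adjusted p = 0.632), its anchor Insig1 (0.05, adjusted p = 0.910) and the ChREBP partner Mlx (0.21, adjusted p = 0.116) did not pass the threshold.

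**Figure D3:**
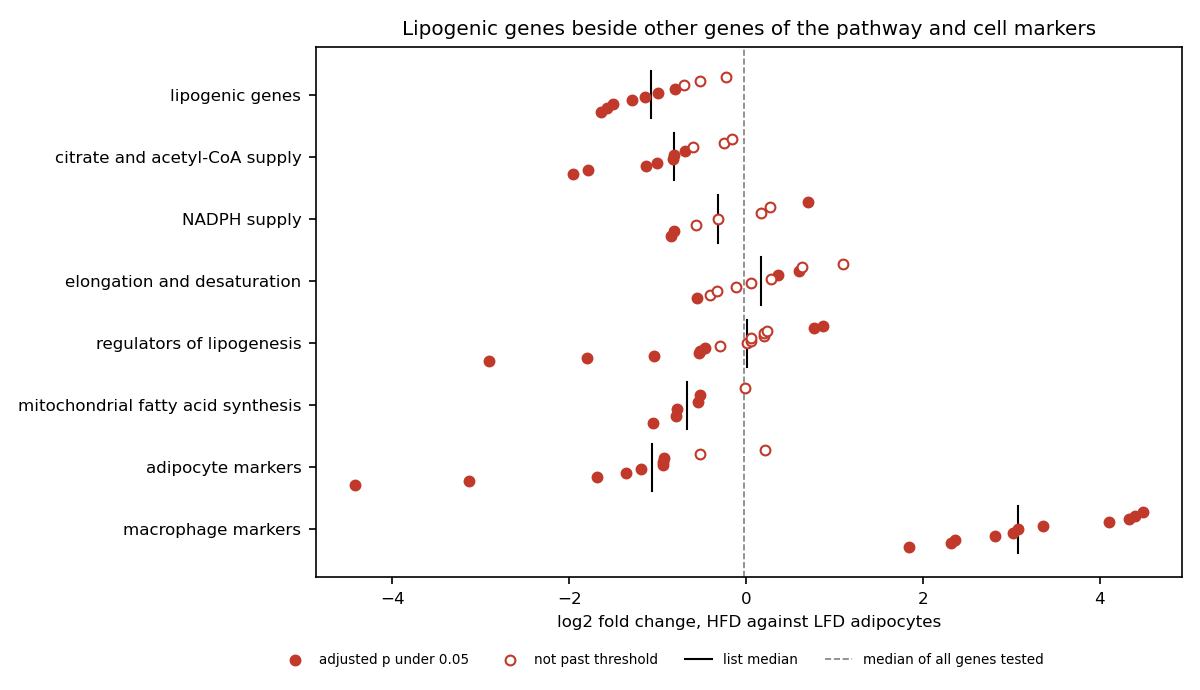
Log2 fold changes between HFD and LFD adipocytes (edgeR) for the lipogenic genes, 5 lists of other pathway genes and the adipocyte and macrophage markers; each point is a gene, filled where the adjusted p is under 0.05, black bars are list medians and the dashed line is the median of all genes tested. The lipogenic genes (median -1.07) and the adipocyte markers (median -1.07) lie to the left, the elongation and desaturation list near the dashed line, and all 11 macrophage markers to the right.

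The genes most like Fasn across the 9 adipocyte libraries, among 7855 genes whose mean log2 CPM reached 4, were BC034902 (Pearson's r = 0.968), R3hcc1 (0.967), Dmrt2 (0.966), Snhg11 (0.964) and Prdx6 (0.963). Those most like Mlxipl were Apol6 (0.989), Fitm2 (0.989), Pex13 (0.983), Poldip2 (0.981) and Setd3 (0.980). The libraries fall into 3 diets and share their scaling, so these values describe a shared pattern over diets and libraries and carry no p.

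In SVCs, 9 of the 10 members were lower than in adipocytes of the same diet, in HFD and in SW mice, and Srebf1 was the exception. Scd1 was 43.1-fold higher in the adipocytes of HFD mice (log2 5.43 ± 0.43, adjusted p = 6.78e-06) and its SVC level was 1.84% of the adipocyte level, each scaled within its own fraction, where the 10 adipocyte markers ranged from 1.39% for Lep to 32.4% for Pparg. Me1 (log2 4.16 ± 0.38), Mlxipl (3.93 ± 0.45) and Fasn (3.73 ± 0.54) came next. Acly was the closest among the members called, 0.84 ± 0.22 (adjusted p = 0.0141), a call lost without the adipocyte HFD library 402 (adjusted p = 0.0537). Without the SVC HFD library 212, which leaves 1 HFD library of SVCs, the log2 difference of Acly was 0.68. For Srebf1 the log2 difference was 0.52 ± 0.28 in HFD mice (adjusted p = 0.177) and -0.12 ± 0.25 in SW mice (adjusted p = 0.678). The background was 12.9% of 17441 genes higher and 16.2% lower in the adipocytes of HFD mice, and 32.8% higher and 35.6% lower in those of SW mice, where 9 members were again higher and 0 lower. At an unadjusted p under 0.05, by DESeq2 and by limma-voom the counts were 9 higher and 0 lower in each diet. Over all genes, DESeq2 made 5828 calls in HFD mice (45.3% higher) and 11520 in SW mice (47.6% higher). By limma-voom these were 4923 (51.1% higher) and 11926 (47.7% higher).

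**Figure D4:**
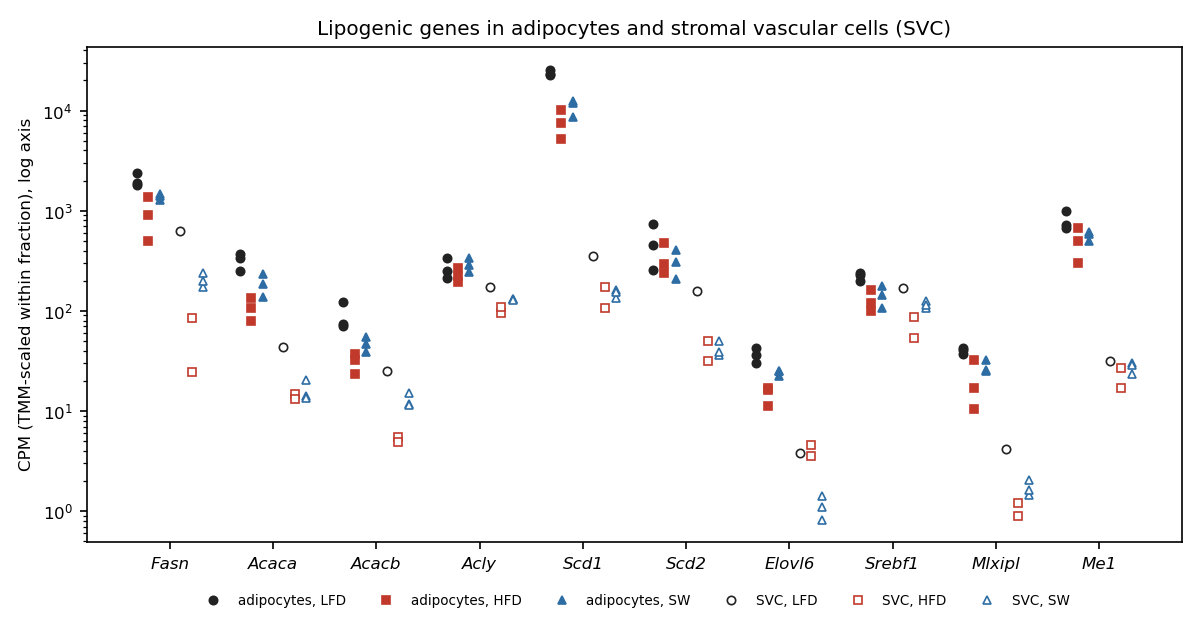
TMM-scaled CPM, on a log axis, of the 10 lipogenic genes in each adipocyte library (filled) and each SVC library (open) of LFD, HFD and SW mice. Scd1, Me1 and Mlxipl lie far apart between the fractions, Srebf1 and Acly lie close, and the single LFD library of SVCs is the highest SVC library for all members but Elovl6.

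Within SVCs, 2 members passed the threshold in the comparison of SW with HFD mice, of which 1 was higher and 1 was lower, beside 5.71% of 16319 genes higher and 11.7% lower. Those shares rest on 2849 calls, 32.7% of them higher, and DESeq2 made 5166 calls, 47.4% of them higher. The count was 0 without the SW library 412 or 413 and 593 without the SW library 414, so the background depends on single libraries as the members do. Leaving out an HFD library of SVCs leaves 1 in the group, so such fits are given as values without a test. Acacb measured 5.57 and 4.90 CPM in HFD and 15.3, 11.7 and 11.4 CPM in SW libraries and rose by 1.28 ± 0.29 on the log2 scale (adjusted p = 0.0410). Elovl6 measured 3.54 and 4.62 CPM in HFD (61 and 67 counts) and 0.82, 1.41 and 1.10 CPM in SW libraries (8, 34 and 10 counts) and fell by 1.85 ± 0.46 (adjusted p = 0.0449). Neither gene's diets overlapped, but both calls were lost on leaving out any of the SW libraries 412, 413 and 414. Both were also lost by limma-voom (adjusted p = 0.0504 and 0.0522). That of Elovl6 was lost with upper-quartile factors (adjusted p = 0.0526) and without a filter on low counts (adjusted p = 0.0506). Without the HFD library 212 the log2 change was 1.45 for Acacb and -1.96 for Elovl6, and without 411 it was -1.64 for Elovl6. DESeq2 called 3 members higher and 1 lower.

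Fasn showed the widest spread among SVCs, with 24.5 and 84.5 CPM in HFD, 241, 175 and 198 CPM in SW and 622 CPM in the LFD library. Its log2 difference of 1.91 ± 0.54 between SW and HFD missed the threshold (adjusted p = 0.0547). It passed by DESeq2 (adjusted p = 0.00124), without a filter on low counts (adjusted p = 0.0427) and with at least 10 counts in every library (adjusted p = 0.0432). With a library left out it ranged from 1.35 to 3.06. The highest was without the HFD library 411, which leaves 1 HFD library of SVCs. Srebf1 measured 53.3 and 87.3 CPM in HFD, 127, 108 and 114 CPM in SW and 170 CPM in the LFD library, with a log2 difference of 0.72 ± 0.27 between SW and HFD (adjusted p = 0.0945). The HFD libraries of SVCs were unlike each other, with mitochondrially encoded genes at 6.34% of the counts of library 212 and 33.5% of those of library 411, and with hemoglobin genes at 0.287% and 3.09%. Their part in these values was not tested.

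The LFD library of SVCs had the highest level of every member except Elovl6 (3.84 CPM). Fasn reached 30.6% of its mean level in LFD adipocytes, Scd2 32.8% and Acacb 28.1%, whereas Scd1 stood at 1.50% and the 10 adipocyte markers ranged from 0.782% for Fabp4 to 14.7% for Pnpla2. Of the 10 adipocyte markers, 7 were higher in this library than in both HFD libraries of SVCs, with 298 CPM for Cfd against 3.88 and 14.8 CPM, 34.9 CPM for Retn against 3.25 and 6.83 CPM and 141 CPM for Lipe against 36.9 and 58.1 CPM. Their sum (1093 CPM) lay between the sums of the HFD libraries (1314 and 974 CPM), which Fabp4 leads with 1059 and 529 CPM. Without Fabp4 it was 908 CPM against 255 and 445 CPM. Its mesothelial markers summed to 877 CPM against 26.6 to 161 CPM in the other SVC libraries, with 5.15% of its counts in hemoglobin genes. Its epididymal epithelium markers summed to 75.4 CPM, against 7.88 and 157 CPM in the HFD and 6.13 to 9.90 CPM in the SW libraries of SVCs. The library was alone in its group and the part of these cells in its levels was not tested.

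The change from HFD to SW was compared between the fractions in a single fit. Elovl6 was the member with a difference past the threshold, moving up in adipocytes and down in SVCs (difference of the log2 changes 2.41 ± 0.36, adjusted p = 0.00137), and 0 members passed in the other direction, beside 15.7% and 11.4% of all genes. At an unadjusted p under 0.05 the counts were 1 and 2, and DESeq2 and limma-voom each called 1 and 0. Those tools made 5430 calls (53.0% higher) and 4651 calls (54.9% higher) over all genes. For Fasn the difference was -1.39 ± 0.63 (adjusted p = 0.117) and for Acacb -0.81 ± 0.38 (adjusted p = 0.126), both with the larger change in SVCs. With a library left out, that of Fasn ranged from -2.56 to -0.72. The lowest was without the SVC HFD library 411, which leaves 1 HFD library of SVCs.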

How the data were processed

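RNA from 26 records of 18 libraries is listed in the labels. Some records are paired-end and some single-end, unevenly between diets and fractions. Every adipocyte library has a paired-end record, and those of SW mice have no single-end record. In SVCs, some HFD and LFD libraries have single-end records only. The part of the layout in the values was not tested. The authors mapped with Bowtie2, ran RSEM and deposited its whole-number estimated counts, which are not scaled; the submitters' processing notes name mm9, with no version of either tool. The 15 columns that name a fraction and a diet were used, with 5781902 to 23725647 counts each, and 3 columns that match no labelled group were not. Replicate pairs differed by more than sampling noise (chi-square per degree of freedom 9.71 to 280). The adipocyte SW library 407 stood at 66.3 against 408 and 59.3 against 409, while 408 and 409 stood at 9.71. Library 407 was the lowest adipocyte SW library for all members but Scd2 and Elovl6. The highest value, 280, was that of the HFD libraries of SVCs. How repeat runs were combined is not given in the sources used here.

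Genes were filtered with filterByExpr (minimum count 10), scaled by TMM and tested with edgeR 4.0.16 (glmQLFit, robust) in R 4.3.3, in a fit per fraction and a joint fit for comparisons between fractions. The standard error is the log2 change divided by the root of F. Alternatives were RLE and upper-quartile factors, other filters, DESeq2 1.42.0, limma-voom (limma 3.58.1), fits of the compared groups only, and each library left out. Scripts were tested on simulated data. The members and lists were chosen with earlier results of these data known. Named genes are all members, the largest changes past the threshold of each list (up to 2 per direction), 6 regulators whatever their values (Thrsp, Insig1, Nr1h3, Scap, Mlx, Srebf2) and the 5 genes most correlated with Fasn and with Mlxipl. Older symbols were matched by gene ID for 3 listed genes, and Hsd17b8 was not matched. Lengths come from GENCODE M21 and promoters from RefSeq GRCm38.p6, neither of which is the build of the counts.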

Additional observations from a re-analysis of the deposited data

Results flagged for a closer look

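Elovl6 stands here because adipocytes and SVCs differed in how it changed when HFD mice became SW mice, by a test of that difference. The log2 change in adipocytes minus that in SVCs was 2.41 ± 0.36 (edgeR, adjusted p = 0.00137). The level was higher in SW than in HFD mice in each of 3 adipocyte libraries and lower in each of 3 SVC libraries, where it rested on 8, 34 and 10 counts. Over the alternatives in which Elovl6 was tested the difference ranged from 2.20 to 2.77, with a highest adjusted p of 0.00532.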

How the results depend on the processing

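No paired analysis was possible because the numbers in the column names are in no label. Counts of members called moved as follows: for SW against LFD adipocytes, 5 by DESeq2 and 1 to 5 with a library left out; for SW against HFD adipocytes, 1 to 4 with a library left out; for SW against HFD in SVCs, 1 with upper-quartile factors, 4 by DESeq2, 0 by limma-voom and 0 to 3 with a library left out; for the difference between fractions, 0 with at least 10 counts in every library, which removes Elovl6 from the test, and 1 to 3 with a library left out. With that filter the log2 changes between SW and HFD SVCs turned to -0.013 for Scd1 and -0.064 for Scd2. Apart from the scaling to the adipocyte markers, given below, the 7 members lower with HFD in adipocytes numbered 6 to 8. This held under the other scalings, filters and tools and with a library left out. None of those settings changed the direction of a member in that comparison.

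Leaving out libraries turned the sign of small values, with these lowest and highest log2 values: between SW and HFD adipocytes, Scd2 from -0.38 to 0.17, Srebf1 from -0.019 to 0.35 and Me1 from -0.054 to 0.47; for Acly, from -0.020 to 0.32 between SW and LFD and from -0.15 to 0.19 between LFD and the other diets; between SW and HFD SVCs, Acaca from -0.10 to 0.36, Scd1 from -0.15 to 0.49 and Scd2 from -0.25 to 0.49; for Srebf1 between the fractions of SW mice, from -0.31 to 0.16; and for the difference between fractions, Acly from -0.23 to 0.068, Scd1 from -0.057 to 0.71, Scd2 from -0.58 to 0.038, Mlxipl from -0.69 to 0.17 and Me1 from -0.59 to 0.12. The Acaca share moved from -2.84 to 1.13 percentage points between HFD and LFD and from -0.33 to 3.64 between SW and LFD.

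Scaling to the adipocyte markers, added after the data were seen, left 4 members called for HFD against LFD, all of them higher, 0 for SW against LFD and 1 for LFD against the other diets. Of the calls over all genes with this scaling, 98.5% were higher for HFD against LFD and 98.2% for SW against LFD. For LFD against the other diets 1.55% of them were higher. Log2 values that turned sign were, for HFD against LFD, Fasn 0.24, Acacb 0.012, Acly 1.23, Scd2 0.84, Elovl6 0.18, Srebf1 0.66, Mlxipl 0.38 and Me1 0.70; for SW against HFD, Fasn -0.23, Acaca -0.086, Acacb -0.31, Acly -0.56, Scd1 -0.35, Elovl6 -0.17, Srebf1 -0.73, Mlxipl -0.32 and Me1 -0.64; for SW against LFD, Fasn 0.0094, Elovl6 0.0058, Mlxipl 0.057 and Me1 0.067; and for LFD against the other diets, Fasn -0.13, Acly -0.95, Scd2 -0.35, Elovl6 -0.091, Srebf1 -0.30, Mlxipl -0.22 and Me1 -0.39. This scaling moves the median of all genes by 1.52, -0.93, 0.59 and -1.06 in these comparisons. Counts over all genes moved by over 1.5 times from 2849 to 5166 by DESeq2 and to 1719 by limma-voom for SW against HFD SVCs, and with the marker scaling from 7448 to 11761, from 4546 to 8764, from 2468 to 3760 and from 5802 to 10874 in the adipocyte comparisons above. With a library left out, the count for SW against HFD SVCs moved from 2849 to 0 without the SW library 412 or 413 and to 593 without the SW library 414. For SW against HFD adipocytes it moved from 4546 to 1522 without the HFD library 403 and to 2299 without 401. Between the fractions of HFD mice it moved from 5078 to 3255 without the adipocyte library 402. Counts from fits that leave 1 HFD library of SVCs are not given. With 8 to 67 counts in SVCs of HFD and SW mice, Elovl6 is limited by depth, as is Mlxipl with 13 to 50.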

Other observations

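Fatty acid synthesis inside mitochondria, a separate pathway that makes the precursor of lipoic acid, had 5 of 6 genes tested lower in HFD than in LFD adipocytes and 0 higher, beside 25.0% of all genes lower and 26.5% higher, with a median log2 change of -0.66 beside -0.03 over all genes. The acyl carrier protein gene Ndufab1 measured 162, 196 and 235 CPM in LFD, 76.9, 120 and 88.1 CPM in HFD and 191, 142 and 148 CPM in SW adipocyte libraries, with no overlap between HFD and the other diets. It fell by 1.05 ± 0.20 on the log2 scale with HFD (edgeR, adjusted p = 0.00200) and rose by 0.75 ± 0.20 from HFD to SW (adjusted p = 0.0219). Acsf3, which activates malonate in mitochondria, fell by 0.79 ± 0.18 with HFD (adjusted p = 0.00517).

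Between the fractions, 9 of 10 suppliers of citrate and acetyl-CoA were higher in the adipocytes of HFD mice, beside 12.9% of all genes higher and 16.2% lower, and 10 of 10 in those of SW mice, beside 32.8% higher and 35.6% lower. Of the regulators, 4 were higher and 5 lower of 16 in HFD mice and 5 higher and 8 lower in SW mice. Thrsp was higher in adipocytes by 4.17 on the log2 scale in SW mice (adjusted p = 1.1e-06) and Srebf2 was lower by 2.79 (log2 -2.79, adjusted p = 1.95e-06).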
